A study of Homo sapiens with 15 samples.

Results

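The expression table of androgen-treated LNCaP cells held 49 histone genes among 17272 genes, and all 49 are described here. They were the rows whose gene name begins with HIST1, HIST2, HIST3, HIST4, H1F, H2AF or H3F, and 6 further histone rows with a pseudogene ending in their name were left out. Of the 49 genes, 37 carried HIST names, which denote the replication-dependent genes of the histone clusters, and 12 carried the names of variant histones. LNCaP cells derive from a prostate tumour of a patient and grow in response to androgen. The cells were kept for 48 h in medium with charcoal-stripped serum, which is low in steroids, and then treated for 22 h. The combination group received 1 nM R1881, a synthetic androgen, with 2 µM darolutamide, an antagonist of the androgen receptor, and had 5 libraries. The other group received 1 nM R1881 with DMSO in place of darolutamide, by the labels, and had 10 libraries. The question was which transcripts darolutamide changes in the presence of androgen. The libraries were made from poly-T selected RNA of 1 cell line, and the methods of the study call the samples biological replicates. The labels do not name separate cultures, and p-values here reflect the scatter among these libraries.

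Histones package DNA into nucleosomes, and there are core histones H2A, H2B, H3 and H4 and the linker histone H1. Replication-dependent histone genes have no introns in their main form, are transcribed in S phase and end their mRNA in a conserved stem-loop in place of a poly(A) tail. The stem-loop is bound by SLBP and cut by a complex guided by the U7 small nuclear RNA. Variant histones are made throughout the cell cycle from ordinary polyadenylated mRNA and replace the canonical histones at promoters, in heterochromatin or at sites of DNA damage. Some replication-dependent genes are also known to make polyadenylated transcripts that end beyond the stem-loop, and a library of poly-T selected RNA holds such transcripts together with any stem-loop mRNA that was carried along. The 2 kinds of transcript cannot be told apart in a value per gene.

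The levels are those of the deposited table, scaled by the authors for depth and called CPM here, with sums of 1005400 to 1078570 per library. Recovered whole reads came to 15830745 to 25317567 per library. The library numbers in the labels fall into separate blocks, 86 to 90 for the combination, 51 to 55 for 5 of the R1881 libraries and 71 to 75 for the other 5. The labels do not say what the numbers stand for. No block held both treatments, so treatment and any difference between the blocks cannot be told apart. Fits against either set of R1881 libraries alone were also made. Over all genes, 46.6% passed the limma trend test on log2(CPM + 0.5) at a Benjamini-Hochberg adjusted p under 0.05, 23.7% lower and 22.8% higher in the combination. With the libraries scaled to their totals, the same test called 3030 genes lower and 5326 higher, in place of 4098 and 3946. All 10 luminal prostate markers were in the table, 5 lower and 3 higher, and of 17 markers of other cells 5 were, with PTPRC, PECAM1, DCN, KRT5 and TP63 among the 12 not in it. Of the 5, COL3A1, VWF, LUM and COL1A1 were higher and KRT14 was lower in the combination, and COL1A1 (limma adjusted p = 0.041) did not pass against either set of R1881 libraries alone (0.0581 and 0.272). Combination replicate 4 stood apart, with COL1A1 at 20.6 CPM against 5.55 to 8.86 CPM in the other 4 combination libraries, and so did R1881 replicate 5, with 18.8 CPM of the non-polyadenylated RNA RN7SK against 2.31 to 3.87 CPM in the other 9 R1881 libraries. Results without each of these libraries are given where they differ.

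The 37 HIST genes comprised 18 of H2B, 9 of H2A, 7 of H4, 2 of H3 and 1 of the linker histone H1. By RefSeq, 23 lie on chromosome 6, 13 on chromosome 1 and 1 on chromosome 12, and 4 of them (HIST2H2BA, HIST2H2BB, HIST2H2BC and HIST2H2BD) are annotated as pseudogenes in spite of their names. The other 33 have an annotated coding sequence, and each of these held the histone stem-loop consensus 22 to 67 bases after the stop codon. Over all 20046 coding genes of GENCODE version 44, 0.594% held the consensus in the 400 bases after a coding sequence. Among the 11 coding variant genes only H2AFX held it, a gene known to make both a stem-loop and a polyadenylated mRNA. The sites are shown because they mark the RNA end that poly-T selection should not catch, and they were found in all coding HIST genes and in 1 coding variant. Capitals mark the 2 arms of the stem and lower case marks the loop, 5′ to 3′ on the strand of the gene.
HIST2H2BE, chr1:149886188-149886203, minus strand: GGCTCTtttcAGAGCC
HIST1H2BI, chr6:26273392-26273407, plus strand: GGCTCTtctaAGAGCC
HIST1H3E, chr6:26225596-26225611, plus strand: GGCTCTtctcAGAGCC
HIST2H4A, chr1:149833032-149833047, plus strand: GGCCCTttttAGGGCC
HIST1H2AK, chr6:27837885-27837900, minus strand: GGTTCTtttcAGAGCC
H2AFX, chr11:119094898-119094913, minus strand: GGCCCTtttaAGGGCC
The first of these was the most common, carried by 16 of the 33 genes, and 9 distinct sequences occurred. The positions are those of GRCh38.

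The HIST genes did not move as a group. In the combination 6 of the 37 were lower, 4 were higher and the other 27 missed the threshold, with a median log2 fold change of 0.03 against 0.0004 over all genes. The share that passed was 27.0%, below the 46.6% of all genes, and 7 of the 37 genes averaged under 1 CPM. The calls differed by level. Of the 10 HIST genes averaging at least 10 CPM, 2 were lower and 3 higher. Of the 20 at 1 to 10 CPM, 4 were lower and 1 was higher, and none of the 7 under 1 CPM passed. All 12 variant genes averaged at least 1 CPM. The variant genes passed more often: 6 of 12 were lower and 2 higher, and the median was -0.18. Without combination replicate 4, which is described below, 9 HIST genes and 9 variant genes were lower, and without R1881 replicate 5, 5 HIST genes were lower and 7 were higher. Against R1881 libraries 51 to 55 alone 3 HIST genes were lower and 8 higher, and against libraries 71 to 75 alone 2 were higher and 3 variant genes were lower. In 2 HIST genes and 3 variant genes all combination libraries lay below all R1881 libraries, and in 2 HIST genes and 1 variant gene all lay above them. Over all genes, 12.6% lay below and 10.8% lay above, 23.4% together. The difference between the HIST and the variant genes was not tested.

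**Figure D1:**
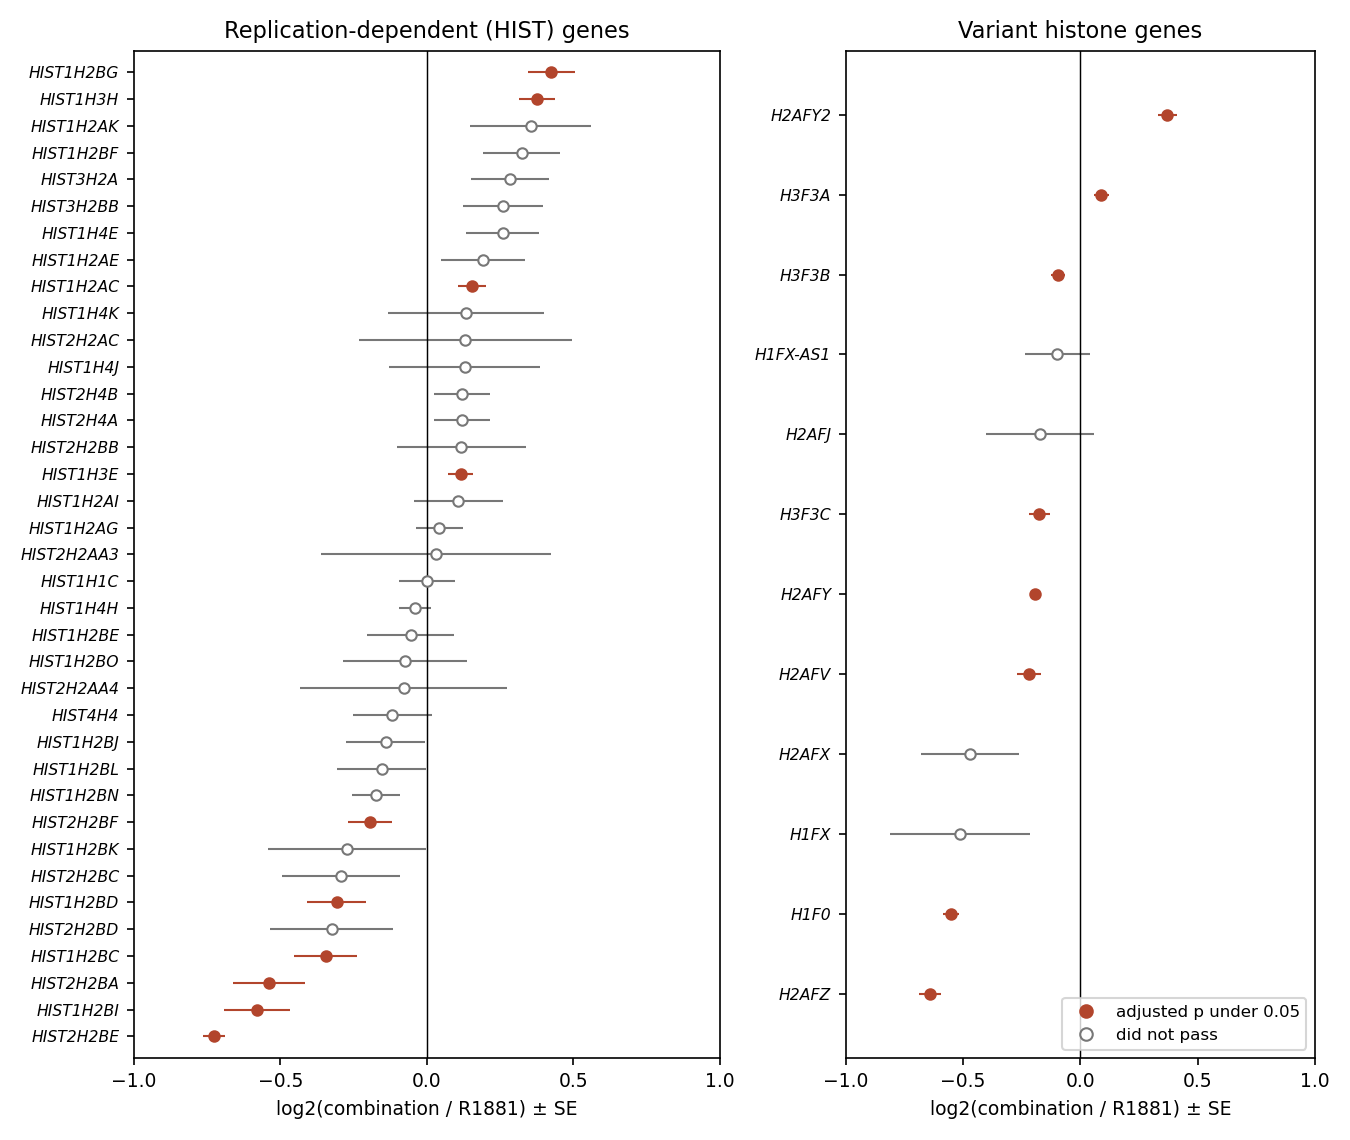
Log2 fold change, combination over R1881, of the 37 HIST genes (left) and the 12 variant genes (right), each ordered by its value, with the standard error of the limma fit as bars. Filled points passed at an adjusted p under 0.05, and the HIST genes run from -0.73 in HIST2H2BE to 0.42 in HIST1H2BG.

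HIST2H2BE, which encodes a replication-dependent H2B, had the lowest log2 fold change of the 49 genes in the limma fit to all libraries. The order depended on the fit, since HIST1H2BI was lower with edgeR (-0.82, against -0.72 for HIST2H2BE), H2AFZ was lower against libraries 51 to 55 (-0.73), and H1FX and H2AFX were lower without combination replicate 4 (-0.92 and -0.76). It lies on chromosome 1 at 149884459 to 149886682 on the minus strand (RefSeq symbol H2BC21). The 5 combination libraries had 134, 126, 133, 128 and 131 CPM, against a lowest of 204, a median of 216 and a highest of 229.7 CPM in the 10 R1881 libraries. The groups did not overlap. Its mean was 130.5 ± 3.42 CPM in the combination and 216 ± 10.6 CPM in R1881 (SD, n = 5 and n = 10), a log2 fold change of -0.73 ± 0.036 (SE, limma adjusted p = 1.45e-11). HIST2H2BE was at -0.66 against R1881 libraries 51 to 55 and -0.79 against libraries 71 to 75. HIST2H2BE was also the most abundant HIST gene, with 24.1% ± 2.49 of all reads of HIST genes in the combination and 35.4% ± 1.46 in R1881.

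Of the 18 H2B genes, 6 were lower and 1 was higher, against 23.7% lower and 22.8% higher over all genes. All 6 falls among HIST genes were in H2B genes, which make up 18 of the 37 HIST genes. Whether H2B genes differ from the other HIST genes was not tested. Besides HIST2H2BE, HIST1H2BI did not overlap between the groups, at 0.957, 0.566, 0.792, 1.08 and 1.13 CPM in the combination, against a lowest of 1.14, a median of 1.58 and a highest of 2.03 CPM in R1881. The highest combination value lay just under the lowest R1881 value. Its log2 fold change was -0.58 ± 0.11 (SE, limma adjusted p = 0.000375), on 14 to 25 reads per combination library and 19 to 45 reads per R1881 library. The 0.5 CPM added before the log shrinks the limma value at this level, and edgeR gave -0.82. The pseudogene HIST2H2BA fell by 0.54 on the log2 scale (limma adjusted p = 0.00148), with 3.26 ± 0.971 CPM in the combination and 4.86 ± 0.612 CPM in R1881. Its transcripts share 77.0% of their 50-base windows with those of other genes, so its reads often have no single origin.

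HIST1H2BC, HIST1H2BD and HIST2H2BF passed by small margins. HIST1H2BC averaged 3.54 ± 0.718 CPM in the combination and 4.59 ± 0.519 CPM in R1881, a log2 fold change of -0.35 (limma adjusted p = 0.0133). It no longer passed without combination replicate 3 (-0.23, adjusted p = 0.0525), against R1881 libraries 51 to 55 alone (adjusted p = 0.0742) or against 71 to 75 alone (adjusted p = 0.0514). HIST1H2BD averaged 8.41 ± 1.353 CPM in the combination and 10.5 ± 1.41 CPM in R1881 (-0.31, limma adjusted p = 0.0179). It missed the threshold without combination replicate 1, 2 or 5 (limma adjusted p = 0.055, 0.0522 and 0.0573) with library totals (adjusted p = 0.0546) and against libraries 51 to 55 alone (-0.16, adjusted p = 0.229). HIST2H2BF, at 14.8 ± 2.04 CPM in the combination and 16.9 ± 1.348 CPM in R1881, had a log2 fold change of -0.19 (limma adjusted p = 0.0403) and was the least stable of the 6. Its adjusted p rose above the threshold in 9 of the 15 fits that left out 1 library, those without combination replicates 1, 2, 3 or 5 or R1881 replicates 1, 4, 5, 6 or 8, up to 0.137, and with either set of R1881 libraries alone (0.196 and 0.0674). HIST2H2BF shares 50.6% of its windows with other genes, so many of its reads may have no single origin.

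HIST1H2BG, another replication-dependent H2B gene, moved in the opposite direction. It had 7.58, 6.23, 7.35, 6.88 and 6.55 CPM in the combination, against a lowest of 4.19, a median of 5.12 and a highest of 5.81 CPM in R1881. All combination libraries lay above all R1881 libraries. The log2 fold change was 0.42 ± 0.079 (SE, limma adjusted p = 0.000239), and it was 0.51 against libraries 51 to 55 and 0.34 against libraries 71 to 75. The remaining 11 H2B genes did not pass, with log2 fold changes from -0.33 in HIST2H2BD to 0.32 in HIST1H2BF. HIST1H2BK, the most abundant of these, had 13.6, 14.2, 8.14, 37.6 and 16.04 CPM in the combination and 12.2 to 32.1 CPM in R1881. The libraries of the combination spread over a wider range than those of R1881. Of the windows of HIST1H2BK, 57.2% occur in other genes. HIST1H2BF passed against R1881 libraries 51 to 55 alone (0.47, limma adjusted p = 0.0134).

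HIST1H3H and HIST1H3E, both genes of the replication-dependent H3, were higher in the combination. HIST1H3H had 17.0, 16.3, 17.7, 18.9 and 17.6 CPM in the combination, against a lowest of 11.4, a median of 13.2 and a highest of 15.03 CPM in R1881. The groups did not overlap, and the log2 fold change was 0.38 ± 0.062 (SE, limma adjusted p = 7.70e-05). HIST1H3E was more abundant and changed less, with 23.1 ± 0.828 CPM in the combination and 21.3 ± 0.928 CPM in R1881 (0.12, limma adjusted p = 0.0344). It lost the call without combination replicate 1, 3 or 4 or R1881 replicate 1, 4 or 8, with limma adjusted p from 0.0542 to 0.089, and against either set of R1881 libraries alone (0.137 and 0.0606).

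Of the 9 replication-dependent H2A genes, only HIST1H2AC passed. It had 99.5, 97.1, 100.7, 101.0 and 101.0 CPM in the combination, against a lowest of 82.1, a median of 89.3 and a highest of 98.3 CPM in R1881. The combination libraries were close together and overlapped the upper end of the R1881 libraries. The log2 fold change was 0.15 (limma adjusted p = 0.0122), and it was 0.24 against libraries 51 to 55 (adjusted p = 0.000181) but 0.07 against libraries 71 to 75 (adjusted p = 0.168). The other H2A genes had log2 fold changes from -0.08 in HIST2H2AA4 to 0.35 in HIST1H2AK, and HIST3H2A passed against libraries 51 to 55 alone (0.43, limma adjusted p = 0.0254).

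None of the 7 H4 genes passed the limma test against all R1881 libraries, and neither did the single H1 gene, while 13 of the 37 HIST genes had an unadjusted p under 0.05. Against libraries 51 to 55 alone HIST1H4E passed (0.41, limma adjusted p = 0.0161), as did HIST2H4A (0.31, adjusted p = 0.00258) and HIST2H4B (0.32, adjusted p = 0.00245), and against libraries 71 to 75 alone none of these passed. HIST1H1C, which encodes a linker histone, had 53.6, 55.9, 40.1, 67.9 and 58.0 CPM in the combination, against a lowest of 47.1, a median of 52.4 and a highest of 64.2 CPM in R1881. Its log2 fold change was 0.001 ± 0.096 (SE, limma adjusted p = 0.995), and its sign turned in several alternatives. HIST1H4H, an H4 gene, averaged 43.6 ± 2.59 CPM in the combination and 44.9 ± 3.31 CPM in R1881 (-0.04, limma adjusted p = 0.593), and its sign turned with library totals (0.03) and against libraries 51 to 55 (0.05). HIST2H4A and HIST2H4B had the same reads in 6 of 15 libraries and differed by at most 3 reads in the others, at 383 to 712 reads of HIST2H4A per library. Of the 50-base windows of HIST2H4A 97.5% occur in other genes, and of those of HIST2H4B 100%, so the 2 rows are 1 measurement. HIST2H4A had 28.2, 26.3, 26.9, 31.4 and 32.2 CPM in the combination, against a lowest of 21.3, a median of 26.5 and a highest of 31.2 CPM in R1881 (0.12, limma adjusted p = 0.335).

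**Figure D2:**
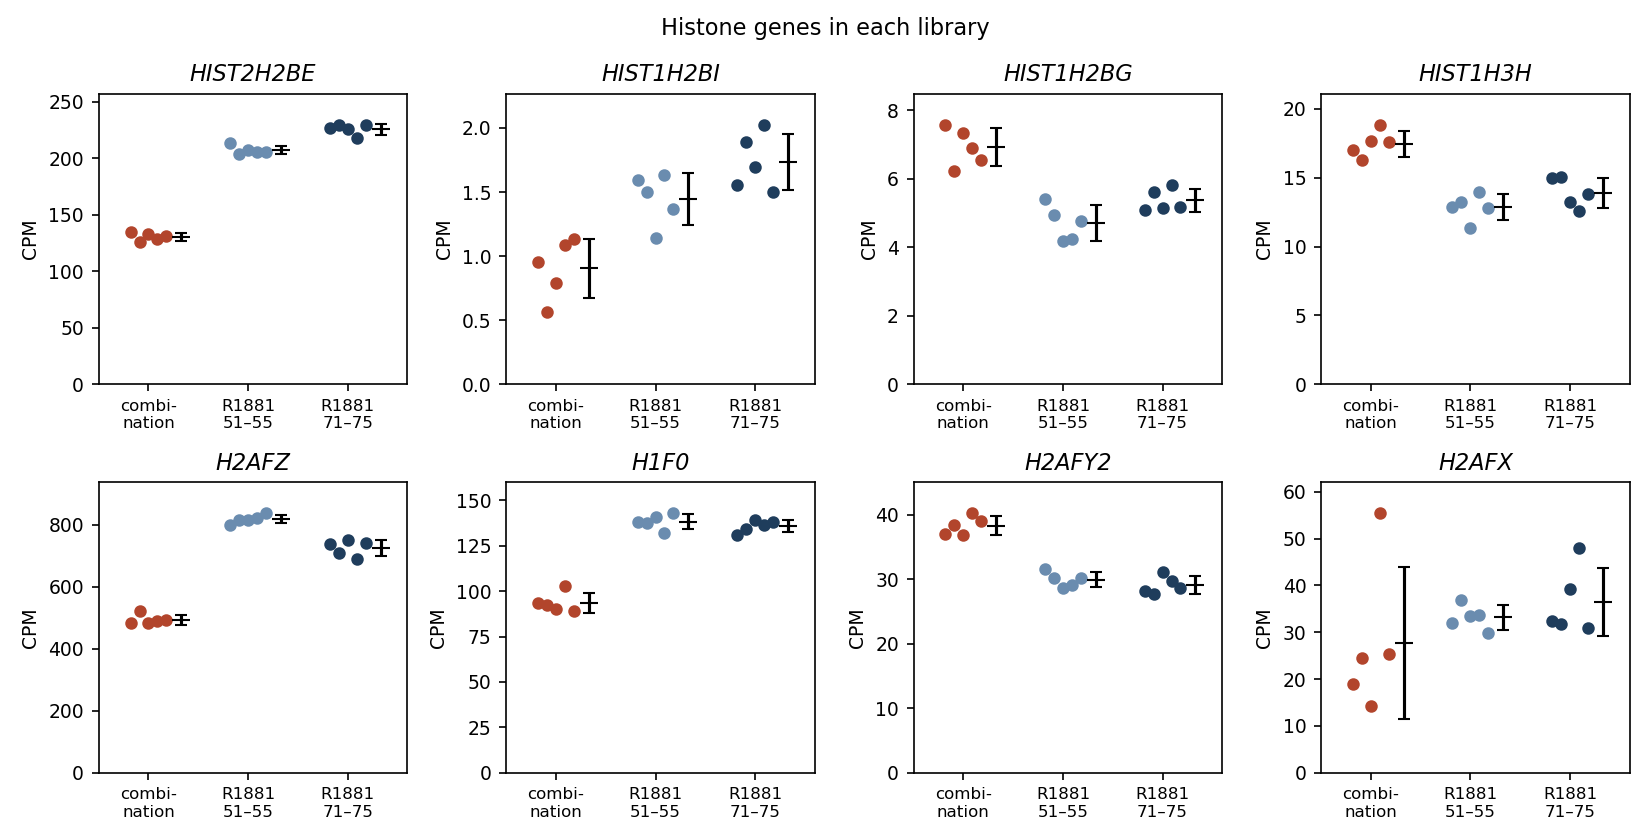
CPM of 8 histone genes in each library, for the combination (n = 5), R1881 libraries 51 to 55 (n = 5) and R1881 libraries 71 to 75 (n = 5), with the mean and SD at the right of each set. HIST2H2BE, HIST1H2BI, H2AFZ and H1F0 are lower and HIST1H2BG, HIST1H3H and H2AFY2 higher in every combination library, while H2AFX spreads from 14.2 to 55.5 CPM within the combination.

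The 9 pairs of HIST genes whose starts lie head to head, 193 to 287 bases apart, did not move together throughout. HIST2H2BE and HIST2H2AC start 235 bases apart and had log2 fold changes of -0.73 and 0.13, and HIST2H2AC, at 0.308 to 6.32 CPM in the combination libraries, did not pass (limma adjusted p = 0.802). HIST1H2BC and HIST1H2AC start 245 bases apart, and the first fell (-0.35) while the second rose (0.15). HIST1H2BG (0.42) and HIST1H2AE (0.19, limma adjusted p = 0.295) start 232 bases apart and had the same sign. No test of the difference within a pair was made.

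The start regions of HIST2H2BE and HIST1H2BG are shown because the 2 H2B genes moved in opposite directions, and that of H2AFZ as a variant gene that was lower in every fit. They span 250 bases before to 50 bases after the annotated start, from RefSeq on GRCh38.p14, on the strand of the gene. Capitals mark matches, on either strand, to the TATA box TATAAA, the CCAAT box CCAAT and the octamer ATTTGCAT, the element that POU2F1 binds in H2B promoters, and no 2 of the marked matches overlap.
HIST2H2BE, chr1:149886633-149886932, minus strand: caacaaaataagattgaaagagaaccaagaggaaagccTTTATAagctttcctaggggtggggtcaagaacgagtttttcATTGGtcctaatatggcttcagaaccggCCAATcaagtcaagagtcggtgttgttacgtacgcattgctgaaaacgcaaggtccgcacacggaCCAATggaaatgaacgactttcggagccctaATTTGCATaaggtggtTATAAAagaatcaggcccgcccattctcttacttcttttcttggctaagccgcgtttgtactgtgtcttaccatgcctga
HIST1H2BG, chr6:26216639-26216938, minus strand: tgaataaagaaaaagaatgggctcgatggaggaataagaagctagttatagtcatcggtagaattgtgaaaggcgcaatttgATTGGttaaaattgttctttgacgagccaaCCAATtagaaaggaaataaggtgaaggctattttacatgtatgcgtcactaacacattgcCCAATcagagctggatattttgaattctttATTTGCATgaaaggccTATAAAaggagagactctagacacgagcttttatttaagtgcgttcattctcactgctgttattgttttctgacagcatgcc
H2AFZ, chr4:99950226-99950525, minus strand: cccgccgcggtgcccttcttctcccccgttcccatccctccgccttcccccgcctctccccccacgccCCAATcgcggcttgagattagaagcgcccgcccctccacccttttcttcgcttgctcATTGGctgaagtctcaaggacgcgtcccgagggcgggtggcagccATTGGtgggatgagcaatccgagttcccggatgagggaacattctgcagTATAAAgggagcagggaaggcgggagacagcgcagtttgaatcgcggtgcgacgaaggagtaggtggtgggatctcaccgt
Both H2B regions held 3 CCAAT boxes and 1 octamer, with a TATA box close to the start. The H2AFZ region held 3 CCAAT boxes, a TATA box and no octamer. The octamer occurred in 14 of 33 HIST promoters and 1 of 9 variant promoters with a sequence, against 1.77% of all 35116 promoters. The TATA box occurred in 21 HIST and 4 variant promoters (11.5% of all) and the CCAAT box in 26 and 6 (34.6% of all). The half-site AGAACA, part of the element that the androgen receptor binds, occurred in 10 HIST and 2 variant promoters (14.8% of all). These HIST promoters are not all separate sequences. The regions of HIST3H2A and HIST3H2BB overlap, as do those of HIST1H2BG and HIST1H2AE, and HIST1H4J and HIST1H4K are near copies. Regions also overlap in HIST2H2BE and HIST2H2AC, in HIST1H2BC and HIST1H2AC, and in HIST1H2BJ and HIST1H2AG. In these pairs, and in HIST1H2BG and HIST1H2AE, the same octamer was counted for both genes. The regions of HIST1H2BL and HIST1H2AI, and of HIST1H2BN and HIST1H2AK, overlap as well. HIST1H3E held the half-site only at the start that was counted. The excess over all promoters was not tested. HIST1H2BG held 1 such match, left in lower case above, and HIST2H2BE and H2AFZ held none in this window.

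Among the variants, both H2A.Z genes were lower. H2A.Z is the H2A variant placed next to transcription start sites. H2AFZ, the main H2A.Z gene here, lies on chromosome 4 at 99948088 to 99950275 on the minus strand. It had 484, 521, 483, 488 and 491 CPM in the combination, against a lowest of 688, a median of 775 and a highest of 837 CPM in R1881, with no overlap. The log2 fold change was -0.64 ± 0.045 (SE, limma adjusted p = 2.00e-09), and it was -0.73 against libraries 51 to 55 and -0.55 against libraries 71 to 75. H2AFV, the second H2A.Z gene, had 160.0, 160.8, 164.6, 139.8 and 148.7 CPM in the combination, against a lowest of 159.9, a median of 181.0 and a highest of 195 CPM in R1881. Its log2 fold change was -0.22 ± 0.051 (SE, limma adjusted p = 0.0018), and against libraries 71 to 75 alone it just missed the threshold (-0.15, adjusted p = 0.0531). H2AFZ made up 76.1% ± 1.27 of the CPM of both genes in the combination and 81.0% ± 0.691 in R1881, and every combination library (74.6% to 77.7%) lay below every R1881 library (79.8% to 82.4%).

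The linker variant H1F0, which accumulates in cells that leave the cell cycle, was lower as well. It had 93.3, 92.5, 90.2, 102.6 and 88.9 CPM in the combination, against a lowest of 131, a median of 138 and a highest of 143 CPM in R1881, again with no overlap. Its log2 fold change was -0.55 ± 0.034 (SE, limma adjusted p = 3.26e-10). In the list of genes of cell cycle exit, 3 of 14 were lower and 5 higher (23.7% and 22.8% over all genes), with a median log2 fold change of 0.04.

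The 2 macroH2A genes, whose products carry a large extra domain and occur on silent chromatin, changed in opposite directions. H2AFY had 318, 318, 318, 321 and 323 CPM in the combination, against a lowest of 353, a median of 368 and a highest of 374 CPM in R1881 (-0.19 ± 0.022 SE, limma adjusted p = 1.29e-06). H2AFY2 had 37.0, 38.4, 36.8, 40.2 and 39.04 CPM in the combination, against a lowest of 27.8, a median of 29.4 and a highest of 31.5 CPM in R1881 (0.37 ± 0.040 SE, limma adjusted p = 4.89e-07). In neither gene did the groups overlap.

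H3.3, the variant H3 placed outside replication, is encoded by H3F3A and H3F3B, and their changes were small and of opposite sign. H3F3A averaged 435 ± 21.5 CPM in the combination and 408 ± 14.7 CPM in R1881 (0.09, limma adjusted p = 0.0373). It lost the call without combination replicate 1, 2, 3 or 5 or R1881 replicate 1, 2, 6 or 7, with limma adjusted p up to 0.146, and against either set of R1881 libraries alone (0.162 and 0.0631). H3F3B averaged 445 ± 12.5 CPM in the combination and 475 ± 17.1 CPM in R1881 (-0.09, limma adjusted p = 0.0161), and was at -0.02 with library totals (adjusted p = 0.551) at -0.08 without combination replicate 1 (adjusted p = 0.0564) and at -0.07 against libraries 71 to 75 (adjusted p = 0.0865). The ratio of H3F3A to H3F3B was 0.978 ± 0.047 in the combination and 0.861 ± 0.040 in R1881, with overlap between the groups. H3F3C, an intronless relative of the H3.3 genes, averaged 88.4 ± 7.47 CPM in the combination and 99.7 ± 4.35 CPM in R1881 (-0.17, limma adjusted p = 0.00516). H3F3C shares 20.7% of its 50-base windows with other genes, and H3F3A shares 18.9%. H3F3C was at -0.10 with library totals (limma adjusted p = 0.0629) and at -0.15 against libraries 71 to 75 (limma adjusted p = 0.0545).

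H1FX, H2AFX and H2AFJ had wide spreads within the combination. In R1881, replicate 6 (library 73) was the highest R1881 library in each of them, at 59.96, 47.9 and 27.1 CPM. H2AFX encodes the H2A variant that is phosphorylated at DNA breaks. It had 18.9, 24.5, 14.2, 55.5 and 25.3 CPM in the combination, against a lowest of 29.8, a median of 32.9 and a highest of 47.9 CPM in R1881. The 4 libraries other than replicate 4 lay below every R1881 library, and replicate 4 above them all. The log2 fold change was -0.47 ± 0.21 (SE, limma adjusted p = 0.0755). H1FX, a linker variant, had 18.6, 23.9, 11.5, 74.8 and 21.1 CPM in the combination, against a lowest of 24.9, a median of 32.0 and a highest of 59.96 CPM in R1881, with the same arrangement (-0.51 ± 0.30 SE, limma adjusted p = 0.175). Without combination replicate 4 the log2 fold change was -0.76 for H2AFX (adjusted p = 6.61e-05) and -0.92 for H1FX (adjusted p = 0.000468). Without both replicates 3 and 4 they were -0.59 (adjusted p = 0.000291) and -0.70 (adjusted p = 0.00321), and with a correction for GC content -0.52 (adjusted p = 1.28e-07) and -0.60 (adjusted p = 5.29e-07). H2AFJ, an H2A variant, had 12.4, 14.2, 8.58, 35.6 and 14.9 CPM in the combination and 13.1 to 27.1 CPM in R1881 (-0.17, limma adjusted p = 0.584), and passed without replicate 4 (-0.47, adjusted p = 0.0177). The antisense RNA H1FX-AS1, which overlaps H1FX on the other strand, averaged 2.48 ± 0.738 CPM in the combination and 2.65 ± 0.481 CPM in R1881 (-0.10, limma adjusted p = 0.604). The strand setting of the counting is not given in the sources used here, so reads of H1FX and H1FX-AS1 may not be separated where they overlap.

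The same 2 combination libraries set the ends of many histone genes. Replicate 4 was the highest of the 5 combination libraries in 25 of 37 HIST and 7 of 12 variant genes, against 34.6% of all genes, and replicate 3 was the lowest in 17 HIST and 7 variant genes, against 31.0% of all genes. The difference between these 2 libraries rose with the GC content of the coding sequence. Over 44 genes with a coding sequence Spearman's rho was 0.62, and it was 0.49 over 33 HIST genes and 0.85 over 11 variant genes. These are descriptions over genes of 2 libraries. All genes of a library share the depth and base composition of that library, so the genes are not replicates. HIST2H2AA3, with a coding GC content of 64.1%, had 20.5 CPM in replicate 4 and 1.89 CPM in replicate 3. HIST2H2BE, at 61.4%, had 128 and 133 CPM. Of the windows of HIST2H2AA3 100% occur in other genes, and of those of HIST2H2BE 8.0%.

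**Figure D3:**
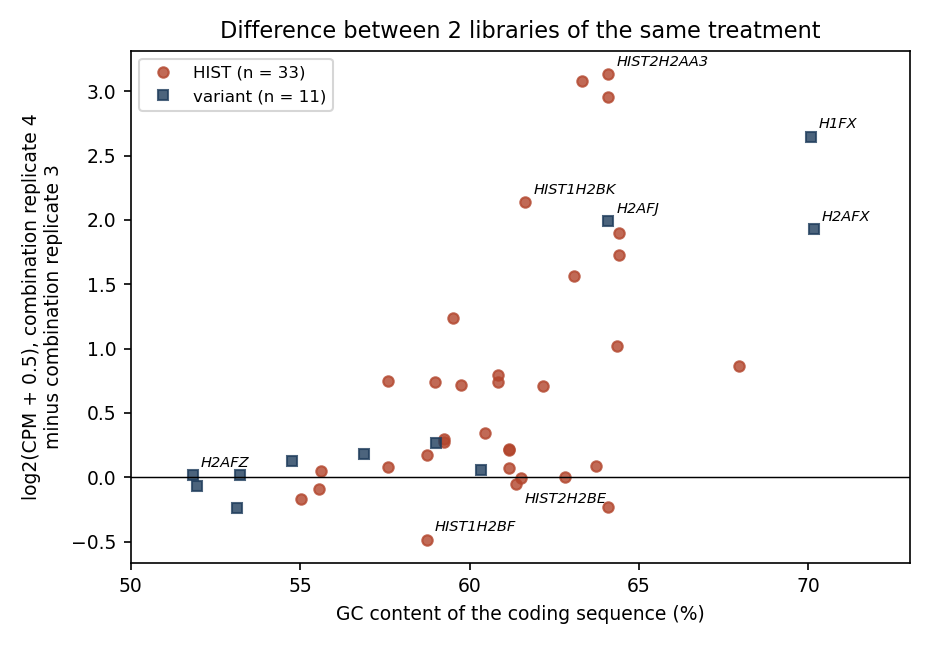
Difference between combination replicates 4 and 3 on the scale of log2(CPM + 0.5), against the GC content of the coding sequence, for 33 HIST genes (circles) and 11 variant genes (squares). H1FX and H2AFX, above 70% GC, differ by 2.65 and 1.93, and HIST2H2AA3 by 3.13, while H2AFZ and HIST2H2BE lie near 0.

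The HIST genes also differed by where their annotation ends. In GENCODE version 44, 17 of the 33 coding HIST genes end within 60 bases of the stem-loop, and 16 have a transcript that reaches further. The genes annotated past the stem-loop had a median of 8.59 CPM per kb of exon (0.264 to 84.4), and the others had a median of 2.83 CPM per kb of exon (1.13 to 74.9), so the 2 sets overlapped widely. This difference in level is a description and was not tested. Among genes of at least 2 CPM, the SD of log2(CPM + 0.5) over the combination libraries had a median of 0.14 in the 14 genes annotated past the stem-loop (0.02 to 0.35) and of 0.27 in the 7 others (0.10 to 1.22). HIST2H2AA3, HIST2H2AA4 and HIST1H2BK are among these 7 and share 100%, 99.8% and 57.2% of their windows with other genes. Their reads therefore often have no single origin, and their SDs may not be separate measurements. Of the 16 genes annotated past the stem-loop 4 were lower and 3 were higher, and of the 17 others 1 was lower and 1 was higher. Over all genes, 23.7% were lower and 22.8% higher. The median level over the 15 libraries was 12.3 CPM in the first set and 1.38 CPM in the second. Whether the calls differ between the sets was not tested. HIST2H2BE is annotated 1729 bases past its stem-loop and HIST1H2BI ends 5 bases after it.

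**Figure D4:**
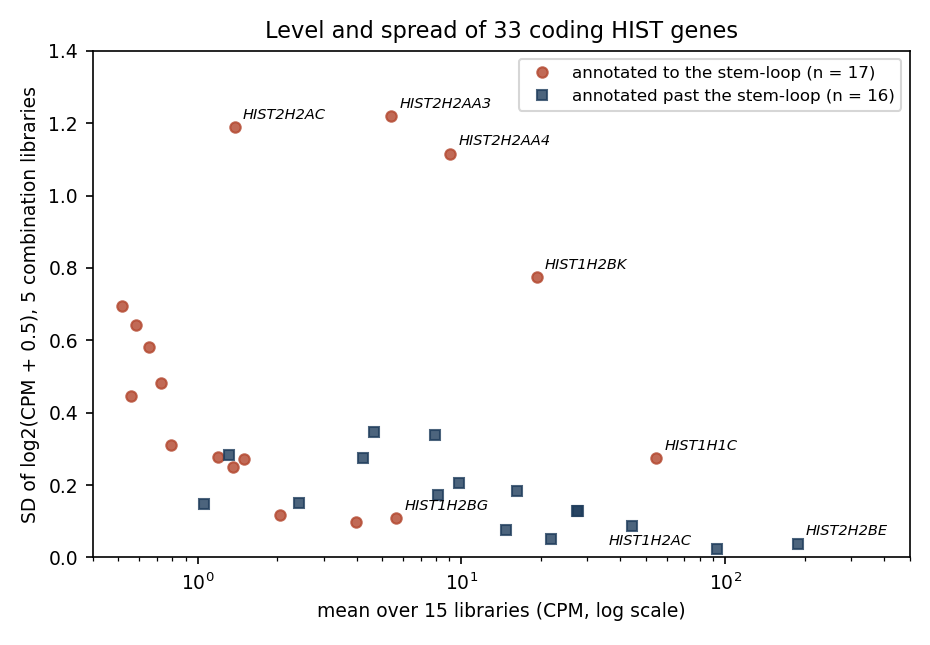
Mean level over 15 libraries (CPM, log scale) and SD of log2(CPM + 0.5) over the 5 combination libraries, for 17 HIST genes annotated to the stem-loop (circles) and 16 annotated past it (squares). HIST2H2AA3, HIST2H2AA4, HIST2H2AC and HIST1H2BK have SDs from 0.78 to 1.22, and HIST2H2BE has 0.04. HIST2H2AA3 and HIST2H2AA4 share 100% and 99.8% of their windows with other genes, so their points may not be separate measurements.

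Summed over genes, the HIST genes had 531, 515, 499.8, 640.3 and 540.0 CPM in the combination, and 561 to 679 CPM in R1881. The means were 545 ± 55.4 CPM in the combination and 613 ± 43.9 CPM in R1881, a ratio of 0.889, with 575 ± 11.2 CPM in libraries 51 to 55 and 651 ± 23.7 CPM in libraries 71 to 75. With library totals the means were closer, at 538 ± 48.7 CPM in the combination and 576 ± 43.85 CPM in R1881. In that scaling libraries 51 to 55 had 539 ± 13.3 CPM and libraries 71 to 75 had 613 ± 26.1 CPM. On the deposited values, the sums without HIST2H2BE were 415 ± 56.7 CPM in the combination and 397 ± 36.0 CPM in R1881, with 426 ± 27.5 CPM in libraries 71 to 75 and 368 ± 8.35 CPM in libraries 51 to 55. Combination replicate 4 had 512 CPM without HIST2H2BE and the other 4 combination libraries had 367 to 409 CPM, within the range of the R1881 libraries (356 to 456 CPM). The variant genes summed to 2145 ± 71.9 CPM in the combination and 2557 ± 79.97 CPM in R1881, a ratio of 0.839, and the highest combination library (2228 CPM) lay below the lowest R1881 library (2453 CPM). H2AFZ had the largest difference in mean CPM of the 12 genes.

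**Figure D5:**
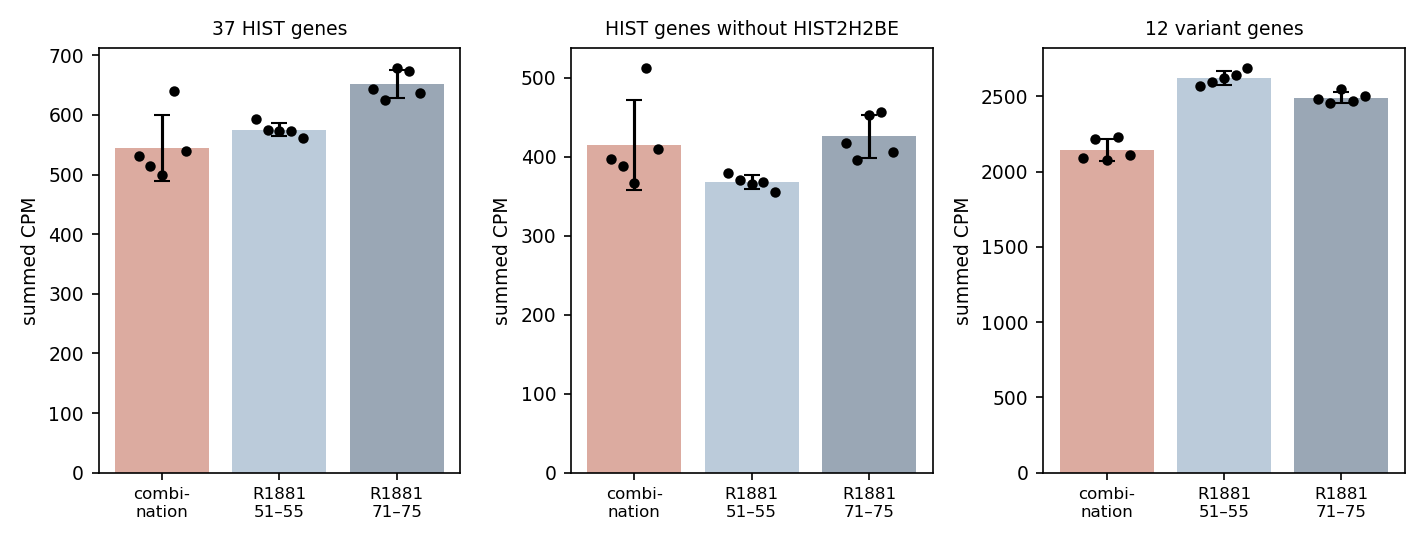
Summed CPM of the 37 HIST genes, of the HIST genes without HIST2H2BE and of the 12 variant genes, with bars for the mean, error bars for the SD and points for the libraries (combination, R1881 libraries 51 to 55 and R1881 libraries 71 to 75, n = 5 each). The variant sums of the combination, 2079 to 2228 CPM, lie below all R1881 sums, and the HIST sums overlap.

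HIST genes also differed between the 2 sets of R1881 libraries, in which no treatment differs. Libraries 71 to 75 were higher than libraries 51 to 55 in 5 of the 37 HIST genes by the limma trend test, 13.5% against 0.805% of all genes, and lower in none (2.29% of all genes, 3.1% in either direction), and the median log2 difference was 0.20 against -0.01 over all genes. The 5 genes were HIST2H4A (0.39) and HIST2H4B (0.39), which are 1 measurement, HIST1H4H (0.18), HIST1H2AC (0.17) and HIST2H2BE (0.12). Among the variants H2AFZ was lower in libraries 71 to 75 (-0.17, limma adjusted p = 0.0145) and no other gene passed. The count of 5 fell to 2 without R1881 replicate 2, 4, 5, 7, 9 or 10 and to 3 without replicate 1 or 8. HIST2H4A was 0.31 higher in the combination than in libraries 51 to 55 (limma adjusted p = 0.00258) and 0.08 lower than in libraries 71 to 75 (adjusted p = 0.386).

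Of 27 genes for the 3′ end of histone mRNA, 7 were lower and 2 were higher, against 23.7% lower and 22.8% higher over all genes, with a median log2 fold change of -0.08. SLBP, which binds the stem-loop, averaged 77.1 ± 3.42 CPM in the combination and 88.5 ± 4.94 CPM in R1881 (-0.20, limma adjusted p = 0.000956). LSM10, a protein of the U7 particle, was at 25.4 ± 3.49 CPM in the combination and 32.2 ± 2.48 CPM in R1881 (-0.34, limma adjusted p = 0.000797), while its partner LSM11 was higher, at 9.71 ± 1.08 CPM in the combination and 6.98 ± 1.33 CPM in R1881 (0.46, limma adjusted p = 0.00254). CSTF3 was higher (0.23) and CSTF2T lower (-0.18), which encode proteins of the cleavage stimulation factor.

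Of 13 genes for histone gene transcription, 3 were lower and 3 were higher (23.7% and 22.8% over all genes), with a median of 0.0004. CDK2, the kinase that activates the histone locus in S phase, was lower, at 68.6 ± 2.34 CPM in the combination and 97.4 ± 4.08 CPM in R1881 (-0.50, limma adjusted p = 2.35e-09). Its cyclin CCNE1 was lower too (-0.21), and POU2F1, which binds the octamer, was higher (0.39, limma adjusted p = 6.15e-06), as was CUX1 (0.20). NPAT, the coactivator of histone genes, averaged 36.7 ± 4.19 CPM in the combination and 33.3 ± 2.97 CPM in R1881 and did not pass (0.14, limma adjusted p = 0.135), but passed against libraries 71 to 75 alone (0.23, adjusted p = 0.0361). Of 26 S phase genes 17 were lower and none was higher, again beside 23.7% and 22.8% over all genes, with a median of -0.25.

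Of 36 histone chaperones and remodellers, 13 were lower and 4 were higher, where 23.7% and 22.8% of all genes were, with a median of -0.09. HJURP, the chaperone of the centromeric H3, averaged 16.8 ± 0.960 CPM in the combination and 29.6 ± 2.10 CPM in R1881 (-0.80, limma adjusted p = 1.27e-09). ASF1B, which hands H3 and H4 to the replication fork, was lower (-0.55, limma adjusted p = 2.13e-06). NAP1L1, an H2A and H2B chaperone, was higher at 662 ± 54.9 CPM in the combination and 485 ± 23.6 CPM in R1881 (0.45, limma adjusted p = 3.94e-07). APLF, a histone chaperone of DNA repair, was higher from a low level, at 0.531 ± 0.147 CPM in the combination and 0.086 ± 0.051 CPM in R1881 (0.81, limma adjusted p = 3.85e-06). At this level the 0.5 CPM added before the log makes the fitted value smaller than the ratio of the CPM means. For H2A.Z, ANP32E, which removes it from chromatin, was higher (0.46, limma adjusted p = 0.000135) and VPS72, which deposits it, was lower (-0.15, limma adjusted p = 0.0263), though not against libraries 51 to 55 alone (-0.11, adjusted p = 0.164).

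For comparison, 18 of 20 androgen-induced genes were lower and none was higher (23.7% and 22.8% over all genes), with a median of -1.20, and KLK3, the gene of PSA, averaged 615 ± 55.9 CPM in the combination and 1588 ± 209 CPM in R1881. Of the 39 RNAs listed that have no poly(A) tail in their mature form, 5 were in the table and none passed. RN7SK had 3.55, 2.35, 1.94, 6.27 and 2.76 CPM in the combination, with replicate 4 the highest and replicate 3 the lowest, as in H1FX, H2AFX and H2AFJ. In R1881 replicate 5, RN7SK, RMRP and RPPH1 were at 18.8, 6.16 and 3.84 CPM, each the highest of the 15 libraries. Without that library 5 HIST genes were lower and 7 were higher.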

How the data were processed

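LNCaP RNA was selected with poly-T beads, and libraries of 50-base single-end reads were made with a stranded mRNA kit. Per the labels and the methods of the study, the authors used bcl2fastq 2.17, STAR and featureCounts (Subread) on GRCh38. The versions of the last tools, the annotation, the strand and multimapping settings and the filter on genes are not given in the sources used here. The authors deposited a scaled signal for each gene (CPM), in which every library is divided by 1 factor. In 100% of values a whole number of reads was recovered (tolerance 0.001 reads). The planned test for scaled values, limma's trend test (3.58.1, R 4.3.3) on log2(value + 0.5), was run on all 17272 genes with Benjamini-Hochberg adjustment, and 0 columns were left unused. On the recovered reads, edgeR (4.0.16, quasi-likelihood, TMM) called 3943 genes lower and 4106 higher.

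The members and the gene lists were chosen with earlier results of these data known, and no list was tested. Genes were named by rule: all variants, the 6 most abundant HIST genes, up to 8 rises and 8 falls among calls averaging 0.5 CPM or more, members whose direction turned, and up to 4 genes of smallest p in each other list. HIST1H2BK, HIST2H2AA3 and other genes given for their spread or as ends of a range, NPAT, VPS72, ANP32E, LSM11, COL1A1 and KLK3 were chosen after their values were seen. Old symbols were matched to RefSeq (GRCh38.p14), and 49 of 49 members and 14818 genes in all had a GC content from GENCODE version 44. The half-site AGAACA, the H1 box AAACACA (2 of 33 HIST and 0 of 9 variant promoters, 5.64% of all) and the other motifs were searched on both strands. In the counts of HIST and variant promoters a gene with several annotated starts enters once, with the start of lowest coordinate. The share of all promoters counts every start. H3F3A held an H1 box at other starts than the one counted. Alternatives were pseudocounts of 0.1 and 1, a minimum mean of 1 CPM, library totals, edgeR, DESeq2 (1.42.0), either set of R1881 libraries, leaving out combination replicates 3 and 4, the replicate number as a block, a GC correction (natural spline, 5 df) and each library left out in turn. The labels give 10 R1881 and 5 combination libraries and 1 nM R1881, and these were used. The methods of the study state the group sizes the other way round and a higher R1881 concentration, and the difference could not be resolved here.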

Additional observations from a re-analysis of the deposited data

Results flagged for a closer look

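In 62 sets of libraries (the named genes and the summed measures, in each group), 6 had a library far from the others by Dixon's ratio of gap to range, and chance alone flags about 1 in 20 sets. Combination replicate 4 was the far library in 4 of them. H1FX had 74.8 CPM there, against 11.5 to 23.9 CPM in the other 4 combination libraries. H2AFX had 55.5 CPM, against 14.2 to 25.3 CPM, and H2AFJ had 35.6 CPM, against 8.58 to 14.9 CPM. The summed HIST genes had 640.3 CPM there, against 499.8 to 540.0 CPM. In combination replicate 2, H2AFZ had 521 CPM, against 483 to 491 CPM in the other 4, and this lay below every R1881 library. In R1881 replicate 6, H2AFX had 47.9 CPM, against 29.8 to 39.2 CPM in the other 9 R1881 libraries.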

How the results depend on the processing

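Of the 18 named genes that passed the test, HIST2H2BE, HIST1H2BI, HIST1H2BG, HIST1H3H, HIST2H2BA, H2AFZ, H1F0, H2AFY and H2AFY2 kept direction and call in all 26 alternatives each, leaving out libraries included. The counts depended more on the processing. HIST genes lower, 6 in all, were 3 against R1881 libraries 51 to 55 and 4 to 9 with 1 library left out. HIST genes higher, 4 in all, were 7 with library totals, 8 with the GC correction, 8 against libraries 51 to 55 and 2 against libraries 71 to 75, and 3 to 7 with 1 library left out. Variant genes lower, 6 in all, were 3 against libraries 71 to 75 and 5 to 9 with 1 library left out, and variant genes higher, 2 in all, were 1 against either set of R1881 libraries and 1 to 2 with 1 library left out, since H3F3A lay near the threshold. Between the R1881 sets, DESeq2 called 2 members lower and 8 higher in place of 1 and 5, and leaving out 1 library gave 0 to 2 and 2 to 7. The ratio of variant sums was 0.882 with library totals in place of 0.839. The cause of these shifts was not tested.

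Signs turned only in named genes that did not pass the test against all R1881 libraries: H1FX-AS1 was 0.0223 against libraries 51 to 55 and -0.22 to 0.000291 with 1 library left out, H2AFJ -0.47 to 0.0262 and HIST1H1C -0.0788 to 0.109 with 1 left out, HIST1H1C -0.00539 against libraries 71 to 75, HIST1H4H 0.0314 with library totals and 0.0481 against libraries 51 to 55, and HIST2H4A -0.0755 and HIST2H4B -0.0744 against libraries 71 to 75.

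The replicate numbers did not pair the samples, since the correlations of same-numbered libraries ran from -0.14 to 0.34 and only combination replicate 3 was closest to the R1881 library of its number (1 of 5). With the replicate block, 3 HIST genes were lower and 2 higher, 1 variant gene was higher, and HIST1H1C was at -0.0121. At 15830745 reads in the smallest library, 1 read was worth 0.0677 CPM, so genes under 1 CPM rest on few reads.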
